A study of Mus musculus with 4 samples.

Results

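The 10 genes described here encode enzymes that build fatty acids in the cytosol and then desaturate or lengthen them. They were Acly, Acss2, Acaca and Fasn for saturated chain synthesis, Scd1, Scd2, Fads1 and Fads2 for desaturation, and Elovl5 and Elovl6 for elongation. They were found by the gene name that the array annotation gives to its non-control probes, and all 10 were present, with 16 probes, among 23212 named genes with 30840 probes. Expression was measured on 4 one-colour Agilent arrays of bone marrow-derived macrophages (BMDMs) from 10-week-old C57BL/6J mice, with 1 array for each condition. The cells had been differentiated for 6 days in medium containing L929 cell supernatant and then stimulated for 2 days. The wild-type M1 array held cells given IFN-γ (20 ng/ml) with LPS (100 ng/ml), and the wild-type M2 array held cells given IL-4 (50 ng/ml). The Lamtor1-deficient array held p18 (2400001E08Rik) -/- cells given the same dose of IL-4, and the Torin1-treated array held wild-type cells given IL-4 together with 250 nM of the mTOR inhibitor Torin1. p18 and 2400001E08Rik are older names of Lamtor1, the lysosomal anchor on which the kinase complex mTORC1 is activated. According to the methods, the deficient mice carried a floxed Lamtor1 allele and LysM-Cre, which gives a myeloid-specific knockout. The paper reports complete deletion of Lamtor1 in the BMDMs, and whether any other cells of the culture kept the gene was not tested here.

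Fatty acid synthesis starts from acetyl-CoA, which ATP citrate lyase (Acly) makes from citrate and acetyl-CoA synthetase (Acss2) makes from acetate. Acetyl-CoA carboxylase (Acaca) turns it into malonyl-CoA, and fatty acid synthase (Fasn) joins these units into palmitate. Stearoyl-CoA desaturases (Scd1, Scd2) put the first double bond into a saturated chain, whereas Fads1 and Fads2 add further double bonds to polyunsaturated chains. Elovl6 lengthens saturated and monounsaturated chains, and Elovl5 lengthens polyunsaturated ones. Most of these genes are known targets of the SREBP transcription factors, and several also of LXR; in macrophages their products supply membrane phospholipids and lipid mediators.

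No array had a replicate, so no difference below has a test or a p-value across samples, and nothing in the labels says how many animals or cultures each RNA came from. The unit is the normalized signal, which is the background-subtracted brightness of a probe divided by the 75th percentile of its array (286.8 to 594.8 in raw signal). The only measure of error is the technical SD of a log2 ratio, from 399 probes printed 8 or more times: its median was 0.090 to 0.098 for probes well above background on both arrays and 0.36 to 0.52 for dimmer ones. It leaves out the spread between cultures and animals. Between 51.0% and 55.5% of probes were well above background on each array, and no spot was saturated. The Lamtor1 probe read 66.3 on the wild-type M2 array, 51.2 on the M1 array and 1.55 on the Lamtor1-deficient array, which was 42.7-fold below wild-type M2 and 48.2-fold below the Torin1-treated array. All 7 macrophage markers (Csf1r, Emr1, Itgam, Cd68, Fcgr1, Mertk and Lyz2) were well above background on all 4 arrays. Of these, Fcgr1 was 31.1-fold and Emr1 5.95-fold lower after Lamtor1 loss than in M2 cells, and they were 24.4-fold and 7.02-fold lower after Torin1. The other 5 differed from M2 by less than 2-fold in these comparisons, with log2 ratios of -0.81 (Itgam) to 0.70 (Lyz2) and of -0.27 (Csf1r) to 0.90 (Mertk). In M1 cells, Fcgr1 was 5.62-fold higher than in M2 cells, and Csf1r (2.36-fold) and Emr1 (2.05-fold) were lower. The rest of the markers differed by less than 2-fold there. The part of these differences in the ratios below was not tested. The summed signal of 4 IL-4 response genes was 1362 on the M2 array, 767 on the Lamtor1-deficient array, 587 on the Torin1-treated array and 5.92 on the M1 array. Chi3l3 held most of the sums after Lamtor1 loss and Torin1, since it read 488, 569, 567 and 0.0998 in this order. Retnla read 672, 149, 0.0277 and 0.0159, the last 2 not well above background. Arg1 was 64.6-fold lower after Lamtor1 loss and 141-fold lower after Torin1 than in M2 cells. Mrc1 was 2.68-fold and 6.25-fold lower. Of 4 IFN-γ and LPS response genes, Nos2 read 0.384, 18.6, 16.5 and 581 in the same order, whereas Cxcl10 read 0.367, 0.0688, 0.0232 (not well above background) and 148. Cxcl9 read 0.0642, 0.0228 (not well above background), 0.068 and 108, and Il12b was not well above background on any array. In RNA of whole cultures, fewer cells of a type and less RNA per cell cannot be told apart.

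Each gene is read through short probes, and the choice of probe matters for Fads2 and, in some comparisons, for Acly and Acss2. The first 30 of the 60 bases are shown for an overlapping pair of Acaca probes and for both Fads2 probes. They are also shown for the Scd1 and Scd2 probes, which carry the highest ratios after Lamtor1 loss. Bases are given 5′ to 3′ in lower case, with the positions that the array annotation gives on mm9. The Acaca probes shown cover nearly the same bases, one step apart, whereas the Fads2 probes lie 25410 bases apart.
Acaca A_55_P2084706, chr11:84215094-84215153: cttcagtccaatgcactcttctcacgtttt
Acaca A_55_P2019058, chr11:84215093-84215152: gcttcagtccaatgcactcttctcacgttt
Fads2 A_66_P130115, chr19:10163229-10163288: agctggatggctgcaacatgactatggcca
Fads2 A_65_P20641, chr19:10137760-10137819: tttagctgttgtgttaacatttcctacaga
Scd1 A_52_P682382, chr19:44469387-44469446: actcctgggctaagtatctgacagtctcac
Scd2 A_51_P129464, chr19:44381024-44381083: acatttggggatcctctgcagaggagtatt
At their best ungapped alignment the Scd1 and Scd2 probes matched at 21 of 60 bases, so these neighbouring paralogs were read by dissimilar probes. One value per gene is given below from its brightest probe over the 4 arrays, and the other probes are described where they differ. Levels of different genes are not compared, because each probe has its own brightness.

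**Figure D1:**
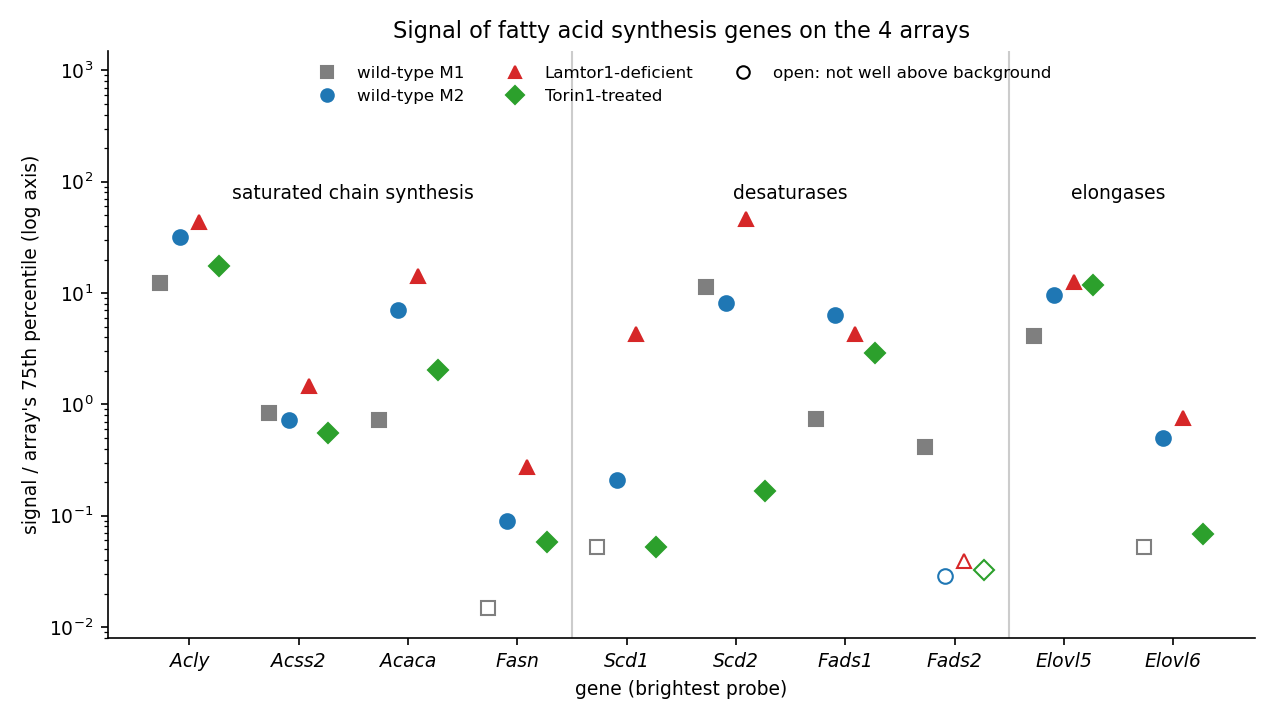
Normalized signal (log axis) of the brightest probe of each of the 10 genes on the 4 arrays, 1 point per array, with open symbols where the probe was not well above background. The Lamtor1-deficient array (triangles) was the highest for 8 of the 10 genes, and Fads1 and Fads2 are the exceptions.

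After Lamtor1 loss, the genes of saturated chain synthesis were higher than in wild-type M2 cells, and the stearoyl-CoA desaturases were much higher. The other desaturases and the elongases differed less, and Fads1 was lower. Of the 10 genes, 5 were at least 2-fold higher (Acss2, Acaca, Fasn, Scd1 and Scd2), and none was 2-fold lower. Over all 23185 genes measured on all arrays, 8.85% were at least 2-fold higher and 8.68% at least 2-fold lower in this comparison.

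Acly read 12.2 on the M1 array, 31.6 on the M2 array, 43.6 on the Lamtor1-deficient array and 17.4 on the Torin1-treated array. Acss2 read 0.842, 0.731, 1.46 and 0.550 in the same order. Both of these acetyl-CoA producing enzymes had their highest signal in the Lamtor1-deficient cells, 1.38-fold (log2 ratio 0.46) and 2.00-fold (1.00) above M2. Acaca, whose product malonyl-CoA is the building unit of the chain, read 0.730, 7.01, 14.1 and 2.05. Fasn, the synthase itself, read 0.0147 on the M1 array, where it was not well above background, and 0.0889, 0.273 and 0.0585 on the others. The log2 ratio to M2 after Lamtor1 loss was 1.01 for Acaca and 1.62 for Fasn. Fasn lay close to background, and its ratio was 0.98 under another background correction (normexp). Acss2 and Acaca stood just past the 2-fold line, so that their place in the count is not firm.

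Scd1 read 0.0528 on the M1 array, not well above background there, then 0.210 on the M2 array, 4.26 on the Lamtor1-deficient array and 0.0518 on the Torin1-treated array. It was 20.3-fold higher (log2 ratio 4.34) in Lamtor1-deficient than in wild-type M2 cells, and 99.3% of all genes had a lower ratio. Scd2 read 11.2, 8.21, 46.6 and 0.167, and was 5.67-fold higher (2.50), above 97.8% of all genes. These enzymes catalyse the same step, and their signals were the furthest from M2 among the 10 genes in this comparison.

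Fads1 read 0.732 on the M1 array, 6.40 on the M2 array, 4.27 on the Lamtor1-deficient array and 2.92 on the Torin1-treated array. It was the only one of the 10 genes that was lower after Lamtor1 loss, at 66.8% of its M2 signal (log2 ratio -0.58). Elovl5 read 4.11, 9.60, 12.6 and 11.9, and Elovl6 read 0.0522 (not well above background), 0.501, 0.748 and 0.0684. Both elongases were moderately higher in the Lamtor1-deficient cells, with log2 ratios of 0.40 (Elovl5) and 0.58 (Elovl6).

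By group, the median log2 ratio after Lamtor1 loss was 1.01 for the 4 genes of saturated chain synthesis (0.46 to 1.62) and 0.51 for the 6 desaturases and elongases (-0.58 to 4.34), beside 0.04 for all genes. The desaturases and elongases thus spanned the whole range, with the stearoyl-CoA desaturases at the top and Fads1 at the bottom, and the saturated chain genes lay within it. The lower median of the desaturases and elongases depended on the probe used for Fads2, the brighter one, which was too dim on these arrays. It was 0.58 without Fads2 and 1.07 with its other probe.

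**Figure D2:**
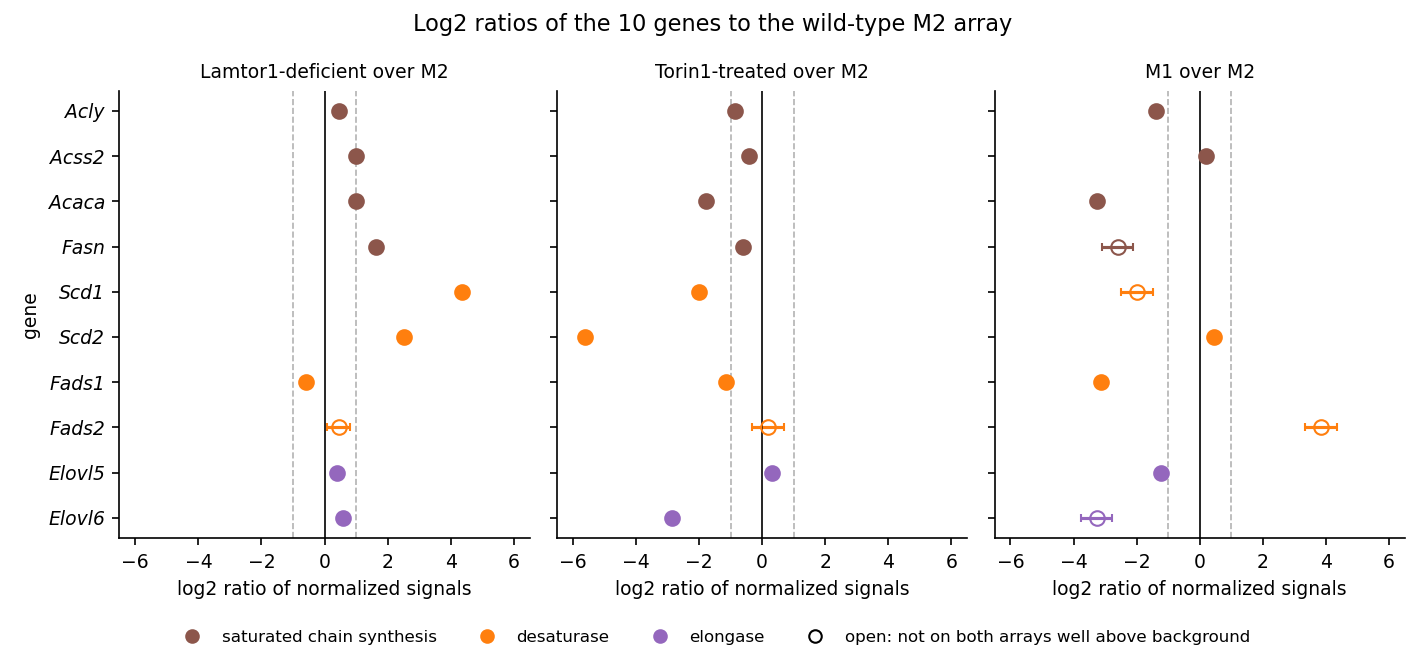
Log2 ratio of normalized signals to the wild-type M2 array for each gene in 3 comparisons, coloured by role; bars are ± 1 technical SD (hidden by the symbol where it is small), dashed lines mark 2-fold, and open symbols were not well above background on both arrays. Scd1 and Scd2 lie furthest right after Lamtor1 loss (4.34 and 2.50), and Scd2 lies furthest left after Torin1 (-5.62).

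After Torin1 treatment the pattern against the same wild-type M2 array was different: 5 of the 10 genes were at least 2-fold lower (Acaca, Scd1, Scd2, Fads1 and Elovl6) and none was 2-fold higher. Over all genes, 11.8% were at least 2-fold lower and 14.3% at least 2-fold higher. Over those well above background on both arrays, as 9 of the 10 genes were, the shares were 13.2% and 11.9%. Scd2 was 49.2-fold lower (log2 ratio -5.62), and 2.03% of its M2 signal was left. Only 0.367% of all genes had a lower ratio. Elovl6, which lengthens the products of Fasn, was 7.32-fold lower (-2.87), and Scd1 was 4.05-fold lower (-2.02). Under normexp these ratios were closer to 0, at -4.77 for Scd2, -1.67 for Elovl6 and -0.88 for Scd1, the last within 2-fold.

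Among the saturated chain genes, Acaca was 3.43-fold lower after Torin1 (log2 ratio -1.78). The other genes of this group differed by less than 2-fold, with log2 ratios of -0.86 for Acly, -0.60 for Fasn and -0.41 for Acss2. Under normexp the ratio of Fasn was -0.05, so that its difference after Torin1 was not firmly measured. Fads1 was 2.19-fold lower (-1.13). Elovl5 was slightly higher (0.31) and was the only one of the 9 genes well above background on both arrays that was not lower.

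The median log2 ratio after Torin1 was -0.73 for saturated chain synthesis (-1.78 to -0.41) and -1.57 for the desaturases and elongases (-5.62 to 0.31; -2.02 without Fads2, whose brighter probe was not well above background), beside -0.05 for all genes. The 2 elongases stood apart from each other in this comparison, since 13.7% of the Elovl6 signal and 124% of the Elovl5 signal of M2 cells was present. The comparisons of Lamtor1-deficient and of Torin1-treated cells share the single M2 array, so any error of that array enters both.

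**Figure D3:**
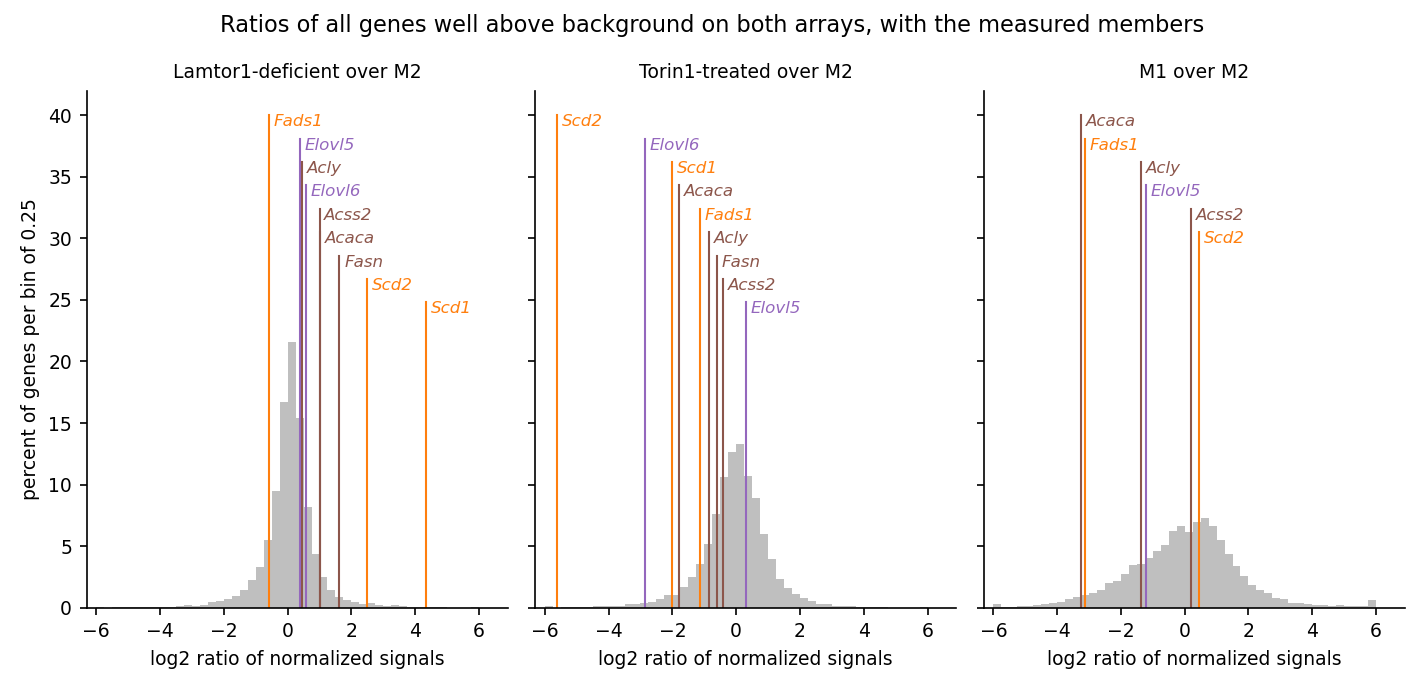
Percent of genes per bin of 0.25 in log2 ratio to the wild-type M2 array, over all genes well above background on both arrays, with a line for each of the 10 genes measured on both, coloured by role as in the plot of ratios; values beyond 6 on either side are in the end bins, and line heights only separate the names. Scd1 (4.34) and Scd2 (2.50) stand in the right tail after Lamtor1 loss, and Scd2 (-5.62) and Elovl6 (-2.87) in the left tail after Torin1.

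Set directly against each other, without the M2 array, Torin1-treated cells had lower signals than Lamtor1-deficient cells for 7 of the 10 genes at 2-fold or more: Acly, Acss2, Acaca, Fasn, Scd1, Scd2 and Elovl6. None was 2-fold higher. Over all genes, 11.6% were at least 2-fold lower and 12.7% at least 2-fold higher, and over those well above background on both arrays, as 9 of the 10 genes were, 12.9% and 9.85%. Scd2 was 279-fold lower (log2 ratio -8.13) and Scd1 82.2-fold lower (-6.36), and 0.0129% and 0.116% of all genes had lower ratios. Elovl6 was 10.9-fold lower. Under normexp the log2 ratios of Scd2, Scd1, Elovl6 and Fasn were -7.24, -4.68, -2.18 and -1.03. With the main background subtraction, the saturated chain genes were between 2.50-fold (Acly) and 6.89-fold (Acaca) lower. Fads1 differed by a log2 ratio of -0.55, and Elovl5 by -0.09, which is within 1 technical SD (0.092). The median was -1.82 for saturated chain synthesis and -2.0 for desaturases and elongases, with -0.12 for all genes. Without Fads2, whose brighter probe was too dim on these arrays, the latter was -3.45. By its other probe Fads2 was at least 3.83-fold lower in Torin1-treated cells and would join the 7, whereas the dimmer Acss2 probe gave -0.55, within 2-fold.

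Between wild-type M1 and M2 cells, 7 of the 10 genes were at least 2-fold lower in M1 cells and 1, Fads2, was at least 2-fold higher. Fads2 was counted by its brighter probe, which owed its place to the M1 array, the only one where it was well above background. With the probe brightest on the 3 arrays of IL-4-stimulated cells, no gene was 2-fold higher in M1 cells. The comparison of M1 with M2 cells has the widest spread of all genes, of which 19.3% were at least 2-fold lower and 30.5% at least 2-fold higher. Among the 6 genes well above background on both arrays, 4 were lower in M1 cells, where 25.3% of all such genes were lower. Acaca was 9.60-fold lower (log2 ratio -3.26), Fads1 8.74-fold lower (-3.13), Acly 2.59-fold lower (-1.37) and Elovl5 2.34-fold lower (-1.22). Acss2 (0.21) and Scd2 (0.45) were slightly higher, and both were below 0 when arrays were shifted to their median instead (-0.62 and -0.37).

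The other genes lower in M1 cells were not well above background there, so their folds are bounds set by the dimmest signal called well above background. Elovl6 was at least 7.64-fold lower in M1 cells and Scd1 at least 3.20-fold lower. For Fasn the bound was only 1.36-fold, although it was counted as past 2-fold from its measured value. These bounds hold for the background subtraction used here, since under normexp the log2 ratios were -1.36 for Elovl6, -0.41 for Scd1 and -0.10 for Fasn, all nearer to 0 than the bounds. The median log2 ratio was -1.98 for saturated chain synthesis and -1.61 for desaturases and elongases, beside 0.74 for all genes and 0.08 for all genes well above background on both arrays. These group medians rest in part on dim M1 signals: with those set to the floor they were -0.91 and -1.45, which turns the order of the groups, and over genes well above background on both arrays they were -1.37 and -1.22.

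The probes of Fads2, the desaturase that opens the polyunsaturated pathway, gave opposite pictures. The brighter one (A_66_P130115), nearer to the start of the transcript, read 0.412 on the M1 array, 0.0287 on the M2 array, 0.0391 on the Lamtor1-deficient array and 0.0324 on the Torin1-treated array. It was well above background on the M1 array only, and at least 11.3-fold higher there than on the M2 array, with a log2 ratio of 2.03 under normexp, again nearer to 0. The other probe (A_65_P20641), nearer to the end, read 0.0137, 0.0433, 0.128 and 0.00697, and was well above background on the M2 and Lamtor1-deficient arrays only. By this probe Fads2 was 2.96-fold higher (log2 ratio 1.57) after Lamtor1 loss, and the Torin1-treated array was at least 1.29-fold below M2 and at least 3.83-fold below Lamtor1-deficient cells. No fold between IL-4-stimulated samples can be given from the brighter probe, although its measured values enter the group medians above, and which transcripts each probe reads was not tested.

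The probes of Acaca were closer to each other. The overlapping pair, which share 59 genomic bases and matched at 57 of 60, differed by 0.02 to 0.04 in log2 signal on the 3 arrays of IL-4-stimulated cells and by 0.54 on the M1 array. Their log2 ratios were 1.01 and 1.03 after Lamtor1 loss, -1.78 and -1.78 after Torin1, and -3.26 and -3.82 in M1 cells. Another probe (A_55_P2121392), 206013 bases towards the start of the gene, was near background (0.0485, 0.0731, 0.127 and 0.0331), and it too was highest after Lamtor1 loss, by 1.74-fold over M2. The last probe (A_55_P2084703) was well above background on the Lamtor1-deficient array only.

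Acly and Acss2 each had a second, dimmer probe as well. The Acly pair had similar ratios after Lamtor1 loss (0.46 and 0.38) and Torin1 (-0.86 and -0.66), but -1.37 and 0.18 in M1 cells, so the lower Acly signal in M1 cells came from the brighter probe alone. The Acss2 pair gave 1.00 and 0.70 after Lamtor1 loss and -0.41 and 0.15 after Torin1. Between Torin1-treated and Lamtor1-deficient cells it gave -1.41 and -0.55. The direction of Acss2 after Torin1 and its place past 2-fold in the other 2 comparisons thus depended on the probe.

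**Figure D4:**
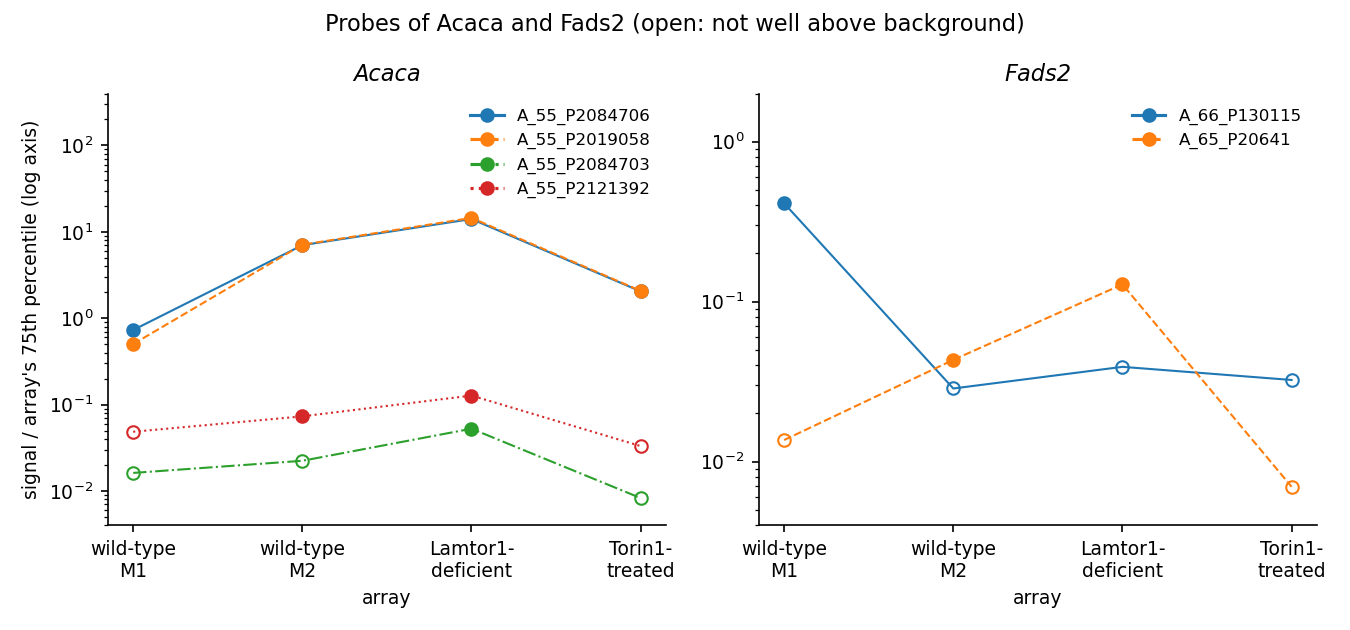
Normalized signal (log axis) of all 4 probes of Acaca and both probes of Fads2 on the 4 arrays, with open symbols where the probe was not well above background; lines join the values of 1 probe. The Acaca probes are all highest on the Lamtor1-deficient array, whereas the Fads2 probes are highest on different arrays (0.412 on M1 and 0.128 on Lamtor1-deficient).

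Of 41 other genes around the pathway, all present on the array, 33 were well above background in both wild-type M2 and Lamtor1-deficient cells, with a median log2 ratio of 0.34. Lamtor1-deficient cells had 4 of them at least 2-fold higher: Dgat2, which makes triacylglycerol, by 12.1-fold (log2 ratio 3.59), the acyl-CoA synthetase Acsl3 by 4.67-fold (2.22), the dehydratase of the elongation cycle Ptpla by 2.74-fold (1.45) and the acyltransferase Agpat1 by 2.27-fold (1.18). Agpat3, an acyltransferase of phospholipid synthesis (-1.11), and Lpin2, a phosphatidate phosphatase (-1.21), were at least 2-fold lower. Among all genes well above background on both arrays, 7.81% were at least 2-fold higher and 7.75% at least 2-fold lower.

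After Torin1, 32 of the 41 were measured, with a median log2 ratio of -0.06, and 7 were at least 2-fold lower against 13.2% of all genes well above background on both arrays. These were Agpat3 (-2.22), Acsl3 (-2.13), Ptplad2 (-1.93), Dgat2 (-1.64), Fads3 (-1.41), Idh1 (-1.37) and Aacs (-1.35). Scd3, a stearoyl-CoA desaturase known from skin, was 2.27-fold higher (1.18), and Dgat1 was 2.18-fold higher (1.12), where 11.9% of all such genes were. Scd3 read 0.616, 0.197, 0.125 and 0.448 on the M1, M2, Lamtor1-deficient and Torin1-treated arrays, and so was lowest where Scd1 and Scd2 were highest. Dgat1 and Dgat2, which catalyse the same last step of triacylglycerol synthesis, had log2 ratios of 1.12 and -1.64 after Torin1.

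In M1 cells, 15 of 33 measured genes of the list were at least 2-fold lower than in M2 cells and 4 were higher (Acsl1, Lpin2, Dgat2 and Scd3), beside 25.3% and 25% of all such genes. The furthest were Agpat2 (15.7-fold lower), Lpin1 (14.7-fold lower) and Idh1 (14.2-fold lower). Acsl1, which activates long-chain fatty acids, was 6.31-fold higher. The other elongases Elovl2, Elovl3 and Elovl4 were not well above background on any array. Elovl7 was well above background on the Lamtor1-deficient array only, and at least 1.25-fold higher there than on the M2 array and at least 1.35-fold higher than on the Torin1-treated array. Acsl6 was well above background on the M2 array only. Against M2 it was at least 6.59-fold lower after Lamtor1 loss, 7.36-fold lower after Torin1 and 3.76-fold lower in M1 cells. Fads6 was at least 2.70-fold lower after Torin1, and Gpam at least 2.30-fold lower in M1 cells. Bounds of this kind hold for the main background subtraction. Elovl1 read 127, 122, 238 and 93.6 on the M1, M2, Lamtor1-deficient and Torin1-treated arrays.

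**Figure D5:**
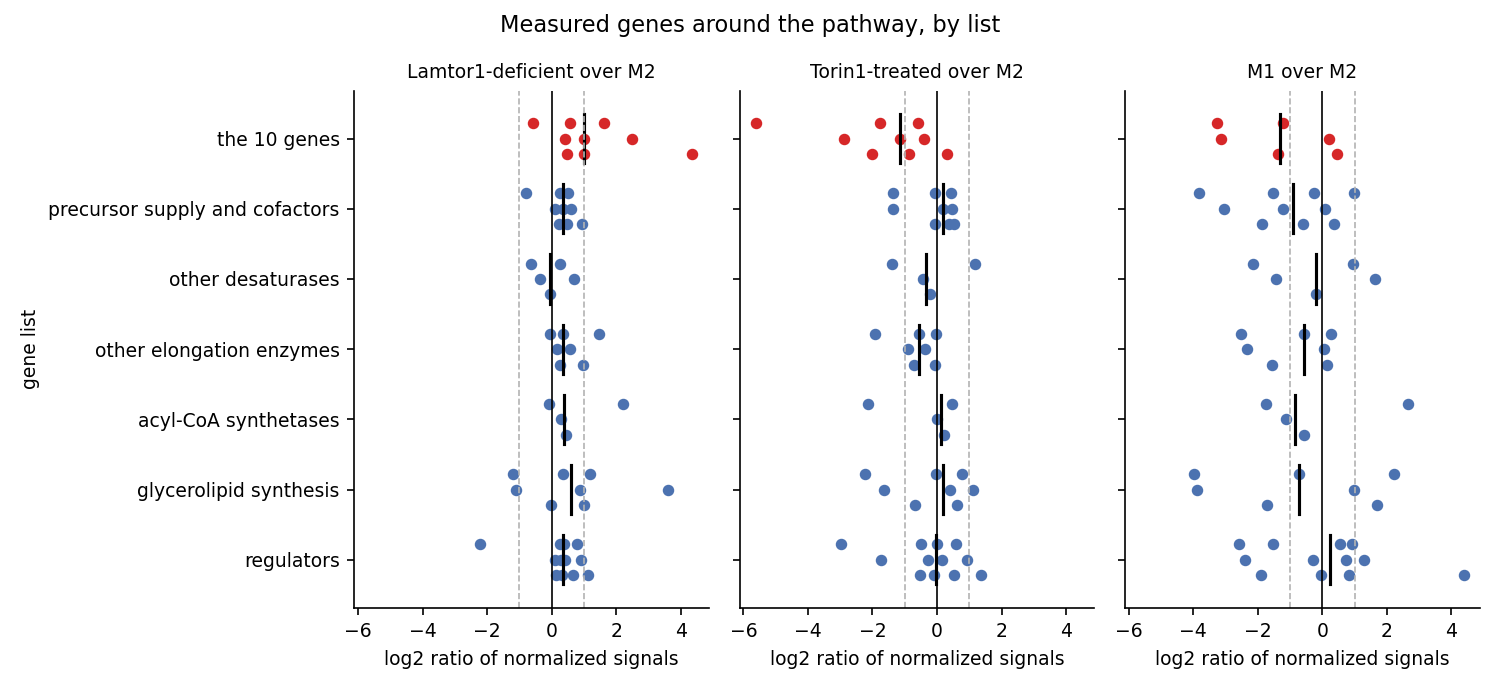
Log2 ratio to the wild-type M2 array of each gene well above background on both arrays, by list, with a black line at the median of each list and dashed lines at 2-fold. The 10 genes (red) had medians of 1.00, -1.13 and -1.30 in the 3 comparisons over those measured.

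The regulators of these genes are taken in turn. Srebf1, which encodes SREBP-1, read 0.205 on the M1 array, 0.595 on the M2 array, 0.704 on the Lamtor1-deficient array and 0.599 on the Torin1-treated array. It was nearly level among the IL-4-stimulated samples, with log2 ratios to M2 of 0.24 and 0.01, and was 2.90-fold lower in M1 cells. Srebf2, which encodes SREBP-2, read 50.3, 34.5, 46.2 and 65.5, with log2 ratios to M2 of 0.42 after Lamtor1 loss, 0.93 after Torin1 and 0.54 in M1 cells. A dimmer Srebf2 probe, also well above background on every array, gave -0.36, -0.10 and -1.40, so the direction depended on the probe in all 3 comparisons. Insig1, itself a target of SREBP and a brake on its processing, read 0.850, 1.05, 1.97 and 0.313, and its log2 ratio to M2 was 0.91 in Lamtor1-deficient and -1.75 in Torin1-treated cells. Insig2, the other brake of this kind, had log2 ratios to M2 of 0.30 after Lamtor1 loss, -0.08 after Torin1 and -0.05 in M1 cells. Mlxipl, which encodes the carbohydrate-responsive factor ChREBP, read 7.12, 4.02, 0.863 and 0.514, and was lower in both Lamtor1-deficient (-2.22) and Torin1-treated cells (-2.96). The LXR genes Nr1h3 (0.77 and 0.14) and Nr1h2 (0.32 and 0.59) differed from M2 by less than 2-fold in both. Of the 12 regulators, all measured, 1 was at least 2-fold higher (Mbtps2, a SREBP protease, 1.13, but 0.72 by its dimmer probe) and 1 lower (Mlxipl) after Lamtor1 loss. After Torin1, 1 was higher (Rxra, 1.37) and 2 were lower (Insig1 and Mlxipl). In M1 cells, Rxra and Mlx were higher, and Srebf1, Scap, Mbtps1 and Mbtps2 were lower. These counts of 1 higher and 1 lower, 1 and 2, and 2 and 4 of 12 stand beside 7.81% and 7.75%, 11.9% and 13.2%, and 25% and 25.3% of all genes well above background on both arrays. A second Rxra probe gave 0.24 after Torin1 and -0.37 in M1 cells, against 4.38 by the brighter one.

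The genes whose ratios over the 3 comparisons lay closest to a member were sought by Euclidean distance in log2 units, with the search limited to genes that every array measured well above background. All 3 ratios share the M2 array, and Fasn, Scd1 and Elovl6 were themselves near background in M1 cells. Acaca was closest to Fdps (distance 0.45), an enzyme of isoprenoid synthesis, followed by Npl, Sod3, Col2a1 and Hmgcs1 (0.62). Fasn was closest to Lss (0.48), an enzyme of sterol synthesis, followed by Gm2115, Ccbl2, Gpm6b and Ptpla (0.63). Acss2 was closest to Atp6v1h (0.12), followed by Elovl1 (0.16), Slc39a14, Fhit and Pdlim1. The nearest gene was Gltpd1 (0.093) for Acly, Klhl22 (0.081) for Elovl5 and Slc46a3 (0.21) for Fads1. For Fads2, by its brighter probe, it was Gpr31c (0.28). Scd1 and Scd2 had no close neighbour, since the nearest gene was 1.12 away for Scd1 (Gm4610) and 1.41 away for Scd2 (Mthfd2). The nearest gene to Elovl6 was Col3a1, a fibroblast collagen, at 0.089, followed by Stard4 (0.54), Ccl6 (0.74), Hist2h3c2-ps (0.93) and Acp5 (0.94).

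Transcripts of other cell types also differed between the arrays. The summed normalized signal of 5 fibroblast markers was 43.2 in M2, 55.9 in Lamtor1-deficient, 15.3 in Torin1-treated and 16.0 in M1 cells, and all 5 were well above background on the 3 arrays of IL-4-stimulated cells. Of these, Pdgfra (1.45) and Dcn (1.91) were at least 2-fold higher after Lamtor1 loss, and Col1a1 (-1.86), Col1a2 (-1.44) and Col3a1 (-2.89) were at least 2-fold lower after Torin1. In M1 cells the members differed in direction, as Dcn was 5.86-fold higher than in M2 cells, and Col1a1 (14.0-fold), Col3a1 (10.2-fold) and Col1a2 (5.28-fold) were lower. The sum of 5 adipocyte markers was 0.712, 6.52, 0.296 and 0.159 in the same order, of which Adipoq gave 0.639, 6.44, 0.192 and 0.0433, whereas Plin1, Lep and Cfd were not well above background on any array and Cidec on 1 only. The sum of the 4 neutrophil markers on the array, of 6 listed, was 7.95 in M2 cells and 0.599, 0.520 and 0.447 in Lamtor1-deficient, Torin1-treated and M1 cells. Ltf (5.04) and Camp (2.09) made up most of the M2 sum. Mpo, Camp and Ltf were at least 2-fold lower after Lamtor1 loss and after Torin1. Retnlg was 1.66-fold higher after Torin1, and was not well above background on the Lamtor1-deficient and M1 arrays. The sum of 5 lymphocyte markers, mostly Cd3e, lay between 1.99 and 4.09. Among these, Cd79a was 3.57-fold lower after Lamtor1 loss and 3.05-fold lower after Torin1, and Ncr1 was well above background on the Lamtor1-deficient array only, at least 6.29-fold above M2. The part of these cells in the ratios was not tested.

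The stretches 250 bases upstream of the annotated start were taken from RefSeq (GRCm38.p6), which gave them for 7 of the 10 genes, without Scd1, Scd2 and Fads1. Fasn, Elovl5 and Elovl6 are shown, the synthase and both elongases, since among the 3 comparisons to M2 the elongases differed most from each other after Torin1. Capitals mark matches on either strand to CCAAT or to CACGTG, and the sequences read 5′ to 3′ towards the start on the strand of the gene.
Fasn, chr11:120824548-120824797, minus strand: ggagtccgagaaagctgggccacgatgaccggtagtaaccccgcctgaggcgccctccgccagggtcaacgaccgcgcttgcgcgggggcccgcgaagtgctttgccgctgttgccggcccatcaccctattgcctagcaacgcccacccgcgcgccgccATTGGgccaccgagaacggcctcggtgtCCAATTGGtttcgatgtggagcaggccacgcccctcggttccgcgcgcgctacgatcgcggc
Elovl5, chr9:77917115-77917364, plus strand: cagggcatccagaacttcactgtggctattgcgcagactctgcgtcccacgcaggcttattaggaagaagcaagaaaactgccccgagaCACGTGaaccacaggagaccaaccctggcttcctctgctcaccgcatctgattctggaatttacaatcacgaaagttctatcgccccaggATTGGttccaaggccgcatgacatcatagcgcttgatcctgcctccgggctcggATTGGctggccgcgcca
Elovl6, chr3:129532136-129532385, plus strand: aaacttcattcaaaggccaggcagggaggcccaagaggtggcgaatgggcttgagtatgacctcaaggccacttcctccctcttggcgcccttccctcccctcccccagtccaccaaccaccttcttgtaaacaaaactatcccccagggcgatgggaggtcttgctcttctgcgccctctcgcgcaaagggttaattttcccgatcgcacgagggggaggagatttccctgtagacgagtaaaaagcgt
CCAAT, the letters that NF-Y binds, was found in Fasn (90, 62 and 59 bases before the start, the last 2 overlapping), Elovl5 (71 and 17) and Acss2 (73), and in 33.8% of 32851 upstream stretches of the same length. Fasn and Elovl5 held it at 2 places at least 5 bases apart, as did 9.91% of all. CACGTG was found in Elovl5 (161) and in 6.02% of all. TCACNCCAC, a form of the sterol regulatory element, was found in none of the 7 and in 1.05% of all. GGGCGG, the GC box, was found in Acly (4 matches), Acss2 (4) and Fads2 (1), and in 32.7% of all. Elovl6 and Acaca held none of these letters in this window. These matches describe the letters only.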

How the data were processed

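The authors deposited 4 one-colour Agilent scanner files, whose intensity values had been background-subtracted within each array by Feature Extraction (10.7.3.1 per the file headers, 10.5.1.1 per the labels), with probe positions on mm9. A deposited value table held the same processed intensity values to within 0.497% and was used as an alternative. Control spots and outlier spots (170 to 226 per array) were left out. Signals were set to at least 1, averaged per probe, divided by the 75th percentile of the array and compared as log2 ratios. Of the steps before the comparison, the methods state the threshold of 1 and the percentile shift to 75. A gene was represented by the probe with the highest mean log2 signal over the 4 arrays. All probes of the 10 genes are described. Genes of the pathway lists are named where they pass 2-fold and are well above background on both arrays, and the regulators always. Elovl2, Elovl3, Elovl4, Elovl7, Acsl6, Fads6 and Gpam were added after their values were seen. The members and lists were chosen with earlier results of these data known. A probe well above background on 1 of 2 arrays gives a bound. The arrays have 1 scan time, and their number limits the precision. The ratio calculation was tested on simulated data. Python 3.11.15, pandas 2.3.3, R 4.3.3 and limma 3.58.1 were used. Other scalings, normexp, dim-probe rules, outlier spots, probe choice and a 3-fold threshold were tried. Gene symbols were those of the array design, of which 93.8% were in the RefSeq table. No values of the study's own comparisons were used.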

Additional observations from a re-analysis of the deposited data

How the results depend on the processing

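No paired analysis was possible because each condition has 1 array and all carry the same replicate number; for the same reason no array could be left out. Of 393 recomputed log2 ratios of the 10 genes, 287 moved by less than 1 technical SD, 97 moved further, and 9 changed sign, not counting Elovl5. Elovl5 in Torin1 over Lamtor1-deficient, within 1 technical SD of 0, lay between -0.40 and 0.10 and kept its sign in 8 of 10 alternatives. With arrays shifted to the median, the median ratio of saturated chain synthesis was -0.98 (Torin1), -2.81 (M1) and -2.13 (Torin1 over Lamtor1-deficient), that of desaturases and elongases -1.82, -2.43 and -2.31, and Acss2, Scd2 and Fads2 changed sign (-0.62 and -0.37 in M1, -0.071 after Torin1). This shift moved the median of all genes by -0.25, -0.82 and -0.31. Quantile normalization gave -2.41 and -2.02 for the medians in M1, 3 genes past 2-fold after Lamtor1 loss in place of 5, and -0.21 for Fads2 after Torin1. The percentile over probes well above background gave 3 genes after Lamtor1 loss, and medians of -1.66 and -1.85 for Torin1 over Lamtor1-deficient. Normexp gave 2 genes after Lamtor1 loss, medians of -0.59 and -0.99 (Torin1), -0.80 and -0.86 (M1) and -1.28 and -1.36 (Torin1 over Lamtor1-deficient), and 0.015 for Fads2 in the last. At 3-fold, 3 genes were past the threshold after Lamtor1 loss. With only probes well above background on both arrays, M1 had 4 genes lower and 0 higher with medians of -1.37 and -1.22, and the desaturases and elongases had -2.02 (Torin1) and -3.45 (Torin1 over Lamtor1-deficient). With dim signals set to the floor, the medians in M1 were -0.91 and -1.45, and Fads2 after Torin1 was -0.12. With the mean of all probes of a gene, desaturases and elongases had 0.79 (Lamtor1 loss) and -2.84 (Torin1 over Lamtor1-deficient), saturated chain synthesis -1.32 (M1) and -1.70 (Torin1 over Lamtor1-deficient), and Fads2 -1.23 after Torin1. With the probe brightest on the 3 arrays of IL-4-stimulated cells, desaturases and elongases had 1.07, -2.33, -1.83 and -3.83 in the 4 comparisons, Fads2 was -2.63 after Torin1 and -1.66 in M1, and no gene was 2-fold higher in M1. Except where the construction of an alternative shows it, the cause was not tested. Signal over background limited Fasn, Scd1 and Elovl6 in M1 cells, and each Fads2 probe on at least 2 arrays.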
